A study of Polistes dominula with 96 samples.

Results

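In 10 control nests a queen and a worker were both sequenced, and these wasps were compared in pairs, brain against brain. The nest number in the name of each wasp made the pairs, which hold 20 of the 96 libraries of the series. Differences are given throughout as queen minus worker of the same nest, so a positive value is higher in the queen.

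The series holds brain RNA of *Polistes dominula* females, with 26 queens, 12 workers of control nests and 58 wasps of nests that had lost their queen. Colonies were collected near Florence before workers eclosed, subordinate foundresses were taken out, and the control nests used here received a sham treatment in place of queen removal. Every paired queen was an overwintered foundress, and every paired worker had eclosed on a nest whose queen was present. Of the paired nests, 7 were sampled at day 3 (8, 9, 28, 49, 54, 56 and 70) and 3 at day 12 (1, 13 and 58), and workers were 2 to 23 days old (median 11.5), whereas the ages of queens are not given by the labels. Caste, generation and age therefore differ together within each pair and cannot be told apart. Each library was made from a single brain, and queens had 9504311 to 14222806 counts (median 10590863) against 11305710 to 16223250 (median 13335736) in workers. The queen had the lower total in 9 of 10 nests (exact sign-flip permutation test, two-sided, p = 0.0137).

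Paper wasp castes are not fixed at the larval stage as firmly as those of honeybees, and a worker can lay eggs and head a nest if the queen is lost. Juvenile hormone and ecdysone, hormones that time moulting in larvae, act in adult paper wasps on ovaries, dominance and brain. Juvenile hormone acts through its target gene Kr-h1, and ecdysone through a receptor that switches on a cascade of nuclear receptors such as E75, Hr3 and ftz-f1. Pairing a queen with her own worker removes what the nest itself shares, such as the site, the comb, the season and kinship.

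Within nests, 1220 of 10794 genes (11.3%) differed between queen and worker at an adjusted p below 0.05 (edgeR quasi-likelihood test with nest as a block, Benjamini-Hochberg adjustment). Of these, 621 were higher in queens (5.75% of all genes) and 599 higher in workers (5.55%). The queen side held the larger steps: its median log2 difference was 0.55 and 141 genes exceeded 2-fold, against a median of -0.38 and 72 genes over 2-fold on the worker side. A test against a difference of 1.5-fold left 59 genes (0.547%), 47 higher in queens (0.435%) and 12 higher in workers (0.111%). Without nests 1, 8, 9, 28 or 54, one at a time, the count of 1220 fell to 789, 805, 742, 738 and 710. It was 500 without nests 54 and 56, whose workers were the youngest, and 657 with the level of muscle markers, described at the end, as a covariate. DESeq2 called 1959. P-values measure the spread between these 10 nests. In bulk RNA of a whole brain, fewer cells of a type and less RNA per cell cannot be told apart.

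The direction of a called gene was kept in most nests. Of the 621 genes higher in queens, 241 were higher in the queen of every nest, 293 in 9 nests, 81 in 8, 5 in 7 and 1 in 5. Of the 599 genes higher in workers, 237 were higher in the worker of every nest, 297 in 9, 60 in 8 and 5 in fewer. Over all genes, called or not, 526 (4.87%) had one direction in all 10 nests, 259 higher in queens (2.4%) and 267 higher in workers (2.47%). A stricter reading, in which the lowest of one caste lies above the highest of the other whichever the nest, was met by 42 genes higher in queens (0.389%) and 23 higher in workers (0.213%).

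**Figure D1:**
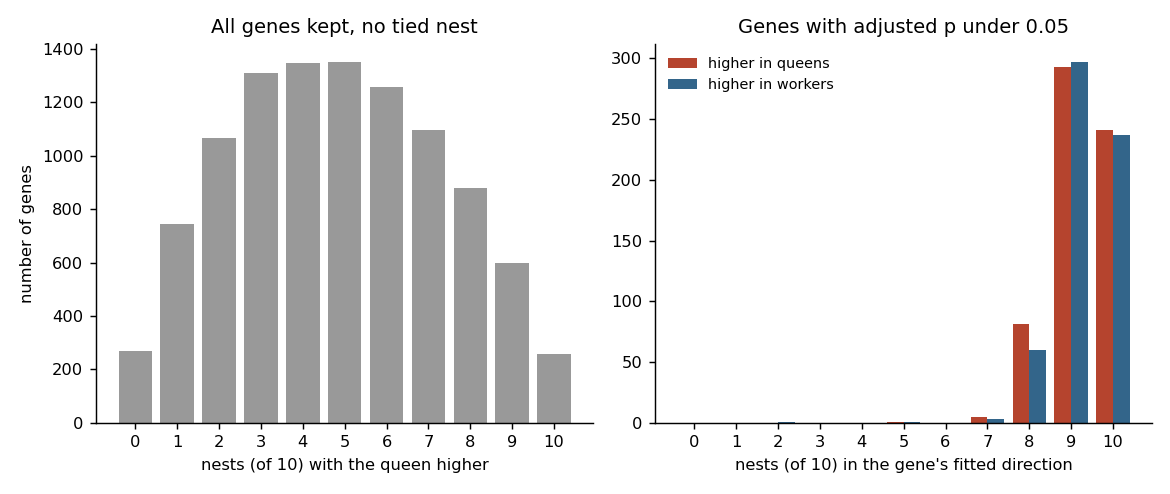
Number of genes by the number of nests that share a direction. The left panel counts, for all genes kept with no tie, the nests in which the queen was higher, and has its bulk between 3 and 7 nests, with 259 genes at 10. The right panel counts, for the 1220 called genes, the nests in the direction of the fit, and 241 and 237 genes of the queen and worker side stand at 10.

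The nests did not take part equally. Among the 590 called genes that went against their direction in a single nest, nest 49 was the exception for 180 (30.5%), nest 58 for 111 (18.8%) and nest 13 for 71 (12%), whereas nest 9 was so for 18 (3.05%). In nest 49, 79.1% of the genes called higher in queens and 81.3% of those called higher in workers had the direction of the fit, and in nest 28 these shares were 98.2% and 94.5%. The nests themselves helped to make those calls, so the fit was repeated 10 times with one nest left out. Genes called in the other 9 nests had the same direction in the nest left out for 59.2% of 1431 genes in nest 49, 69.05% of 1286 in nest 58 and 76.2% of 1100 in nest 13. Nest 54 stood at the other end with 93.2% of 710, and the median over nests was 87.6%. The same share over all genes, called or not, ran from 51.4% in nest 49 to 69.2% in nest 9, which is the level to read the others against.

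Each brain can be placed on a line on which 0 is the mean worker and 1 the mean queen of the other 9 nests, over the genes called without its own nest. The 10 workers lay between -0.0394 and 0.259 (median 0.102), and the 10 queens between 0.456 and 1.14 (median 0.947). The castes did not overlap. The 2 lowest queens were those of nest 49, at 0.456, and nest 58, at 0.739, and the next was that of nest 56 at 0.893. The worker of nest 49, at 0.127, was close to the middle of the workers, and the queen was the wasp of that nest that stood apart from her caste. Of 16 queens with no partner here, 4 came from control nests and 12 from nests of the queen-removal treatment, by the study's sample table. The 4 stood between 0.533 and 1.30 (median 0.952) and the 12 between 0.598 and 1.22 (median 0.758), and the 2 unpaired control workers, aged 16 days and 1 day, stood at 0.222 and -0.0912.

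**Figure D2:**
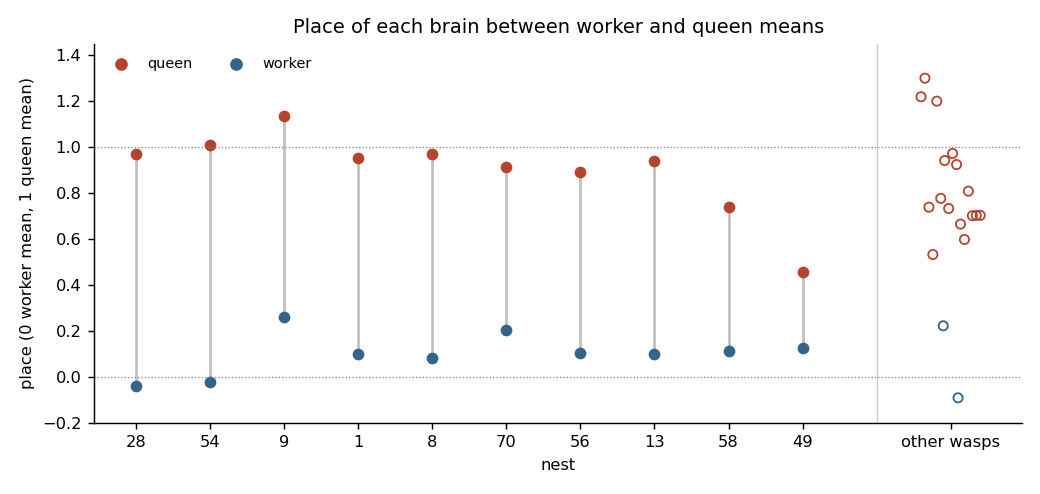
Place of each brain between the worker mean (0) and the queen mean (1) of the other nests, with the 10 nests on the x axis and a line joining queen and worker of a nest. The step is shortest in nest 49, whose queen stands at 0.456, and the open circles at the right are 16 queens and 2 control workers without a partner.

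Nest 49 was low in some queen genes and high in others. Its queen had the lowest Kr-h1 of the 10 queens at 9.61 CPM (counts scaled to library size by TMM), and the lowest level of an elongase of very long chain fatty acids (LOC107072906) at 12.3 CPM. For the chemosensory protein gene ejaculatory bulb-specific protein 3 (LOC107068616) she stood at 22.2 CPM, below her worker at 35.8 CPM. The same queen had the highest level of the ion channel gene nan, at 139 CPM against 8.06 CPM in her worker, and her histone H2A (LOC107066998) lay 3.41 above that of her worker on the log2 scale, within the range of the other nests. Her low place was thus not a shift of every queen gene by one factor.

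The gene of smallest p in the comparison has no name. LOC107073715, an uncharacterized gene, ran from 12.2 CPM over a median of 22.3 to 37.6 CPM in queens and from 0.460 over 0.834 to 1.05 CPM in workers. The lowest queen lay more than 10 times above the highest worker, and the 10 nests differed by 3.59 to 5.72 on the log2 scale. The fitted difference was 4.91 (SE 0.22, adjusted p = 1.85e-07). Another uncharacterized gene, LOC107070787, stood at 43.9, 83.9 and 126 CPM (lowest, median, highest) in queens and at 8.12, 12.3 and 31.8 CPM in workers, with a difference of 2.58 (SE 0.16, adjusted p = 5.68e-06). Again the groups did not overlap.

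Replication-dependent histones package new DNA and are made in step with the S phase, whereas variant histones are made at any time. Of 16 histone genes, 11 were higher in queens and 1 higher in workers (75% called, where 11.3% of all genes were). Their median difference was 2.52, where the median of all genes was -0.02. Of these 16, 15 are known as histones only by product names in the study's own tables of caste and age results, so their number is not independent of those results, and reads of near-identical copies can be split wrongly. Histone H2A (LOC107066998) had a lowest, median and highest level of 9.13, 31.8 and 48.4 CPM in queens and of 0.690, 1.40 and 2.45 CPM in workers. All queens lay above all workers, and the difference was 4.25 (SE 0.29, adjusted p = 8.52e-06). Histone H4 (LOC107064451) ran over 9.37, 30.9 and 47.8 CPM in queens and 0.902, 1.74 and 3.29 CPM in workers, a difference of 3.94 (SE 0.30, adjusted p = 2.29e-05). For both genes the lowest queen was that of nest 54. The abundant variant H3.3 (LOC107064258) differed by 0.19 (adjusted p = 0.117) and His2Av by 0.06 (adjusted p = 0.503). No gene of 34 in DNA replication was called (0%, where 11.3% of all genes were). PCNA, the sliding clamp of the replication fork, stood at 0.16 (SE 0.06, adjusted p = 0.0995). Cdk1, the kinase that starts mitosis, stood at -0.24 (SE 0.08, adjusted p = 0.0574).

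A single histone gene went the other way, with a narrow spread. The H2A gene LOC107068157 stood at 18.5, 25.8 and 28.4 CPM in queens and 39.9, 50.8 and 70.8 CPM in workers. Every worker lay above every queen, and the 10 differences ran only from -1.45 to -0.85. The fitted value was -1.13 (SE 0.07, adjusted p = 5.68e-06).

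Kr-h1, a zinc finger transcription factor induced by juvenile hormone, had the second largest log2 difference among the genes higher in every queen. Queens stood at 9.61, 77.3 and 159.6 CPM and workers at 0.147, 0.460 and 4.46 CPM. The groups did not overlap, but the step was uneven: it was 2.40 in nest 49, 3.68 in nest 56 and 3.85 in nest 13, and 5.84 to 8.68 in the other nests. In nests 56 and 13 the worker was high for a worker, at 4.46 and 4.22 CPM, whereas in nest 49 the queen was low. The fitted difference was 5.99 (SE 0.65, adjusted p = 3.03e-04).

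Genes beside Kr-h1 differed with it. In the order of the reference gene table, the gene before it and both genes after it that were measured here were past 1.5-fold as well, and the next measured gene on either side was not called. An aminotransferase-like gene (LOC107064222) differed by 4.13 (SE 0.62, adjusted p = 0.00195), and the uncharacterized genes LOC107064241 and LOC107064221 by 4.21 (SE 0.65, adjusted p = 0.00236) and 4.58 (SE 0.58, adjusted p = 0.000659). Outside this stretch, LOC107064239 stood at 0.05 (adjusted p = 0.716) and LOC107068884 at 0.21 (adjusted p = 0.111). In all 3 neighbours the lowest queen was that of nest 49, at 2.28, 0.571 and 2.85 CPM, as for Kr-h1 itself. LOC107064220, an uncharacterized gene that has no entry in that table and the largest difference among the genes higher in every queen (6.06, SE 0.59, adjusted p = 0.000140), was also lowest in the queen of nest 49, at 2.47 CPM.

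Such stretches were chosen for description after the values were seen. The reference gene table names no chromosomes, and its order was broken only where the start position fell. Genes counted as neighbours may therefore lie on different sequences. Of 51 genes past 1.5-fold with an entry in the table, 17 lay next to another of them, in 4 runs, all on the queen side: the 4 genes with Kr-h1, nan with one neighbour, a run of 5 histone genes and a run of 6 with 3 histone genes and 3 uncharacterized ones. Of the 102 measured neighbours of these genes, 26 (25.5%) were themselves past 1.5-fold, where 0.512% of all genes in the table were. Among the genes called without a fold threshold, 15.8% of neighbours were called against 11.7% of all genes in the table. Beside nan, a channel needed for hearing in flies, lay a coiled-coil gene (LOC107067286). Nan stood at 37.3, 87.9 and 139 CPM in queens and 3.45, 8.91 and 19.1 CPM in workers (difference 2.93, SE 0.27, adjusted p = 7.73e-05), and its neighbour at 9.07, 16.5 and 28.5 CPM in queens and 1.23, 2.94 and 5.29 CPM in workers (difference 2.28, SE 0.24, adjusted p = 2.80e-04). For both, nests 54 and 49 had the longest steps and nest 1 the shortest. The counting is not stated to use strand, and reads of overlapping or joined transcripts cannot be told apart here.

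**Figure D3:**
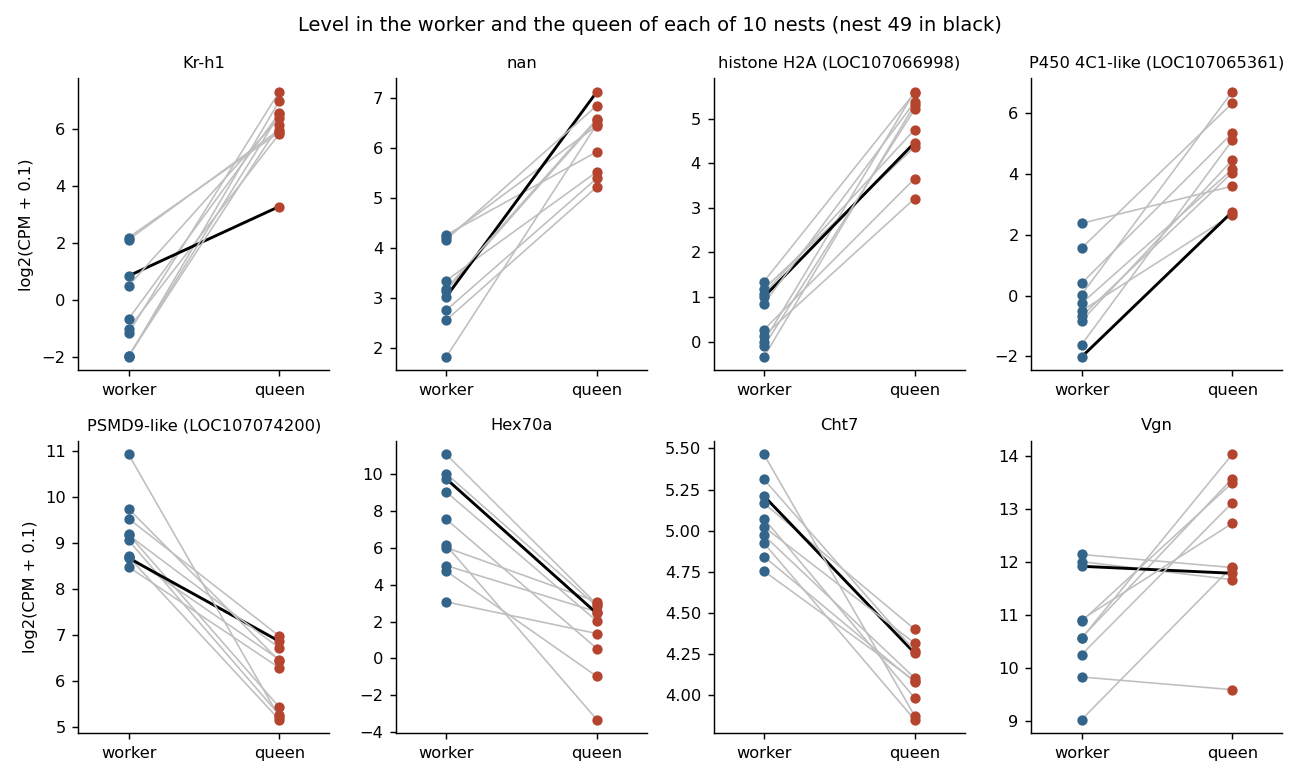
Level of 8 genes in the worker and the queen of each nest on a log2 scale of CPM + 0.1, with a line for each nest and nest 49 in black. Kr-h1, nan, histone H2A and a P450 rise from worker to queen in all 10 nests, PSMD9-like, Hex70a and Cht7 fall in all 10, and Vgn has 6 steep lines and 4 flat ones.

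Of 26 genes of juvenile hormone and ecdysone, 9 were higher in queens and none was higher in workers (34.6% called, where 11.3% of all genes were), with a median of 0.31. The 9 called genes were Kr-h1, Eip93F, E23, E75, Ecr, Hr3, br, ftz-f1 and the juvenile hormone-binding protein gene Jhbp16. The other 17 did not pass the test. Eip93F, an ecdysone-induced transcription factor, ran over 153, 262 and 414 CPM in queens and 41.6, 140.2 and 206 CPM in workers. The castes overlapped in level, yet the queen was higher in every nest, by 0.55 to 2.08, and the difference was 1.13 (SE 0.12, adjusted p = 3.04e-04). E75, a nuclear receptor early in the ecdysone cascade, stood at 351, 554 and 664 CPM against 176, 324 and 387 CPM (difference 0.77, SE 0.09, adjusted p = 3.08e-04). Ecr, the ecdysone receptor, was higher in 9 queens, with 0.66 (SE 0.10, adjusted p = 0.00247).

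Of the same list, ftz-f1 differed by 0.44 (adjusted p = 0.00284) in 10 of 10 nests, Hr3 by 0.48 (adjusted p = 0.00922) in 9 and br, a zinc finger gene of metamorphosis, by 0.42 (adjusted p = 0.0116) in 9. The partner of the receptor, usp, stood at -0.06 (adjusted p = 0.832). Jhamt, a methyltransferase of juvenile hormone synthesis, was not called at -0.11 (SE 0.24, adjusted p = 0.797), and the queen was higher in 5 nests. Queens ran over 46, 128 and 260.2 CPM and workers over 109.9, 143 and 214 CPM for jhamt. The spread was wider in queens, and the differences ran from -1.80 in nest 13 and -1.16 in nest 58 to 1.07 in nest 49. Without nest 13 the fitted value was 0.06.

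Other regulators were higher in queens in every nest. Dati, a zinc finger gene that carries the product name Krueppel homolog 1-like, stood at 59.1, 86.4 and 124 CPM in queens and 23.1, 34.8 and 92.0 CPM in workers. One worker, that of nest 9, lay among the queens, and even there the queen was higher by 0.33 (fitted difference 1.20, SE 0.12, adjusted p = 2.14e-04). FAM46C (LOC107073568), a nucleotidyltransferase that lengthens poly(A) tails in mammals, differed by 1.05 (SE 0.09, adjusted p = 6.38e-05), from 0.58 to 1.30 over nests. Orb2, a translational regulator of long-term memory in flies, differed by 1.27 (SE 0.14, adjusted p = 3.08e-04), and FoxK, a forkhead factor, by 0.40 (SE 0.06, adjusted p = 0.00111) with no overlap of 176 to 240.4 CPM in queens and 155 to 173 CPM in workers.

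A pair of cytochrome P450 genes of the 4C1-like kind had large and uneven steps. LOC107065361 stood at 6.24, 19.8 and 104 CPM in queens and 0.147, 0.670 and 5.09 CPM in workers. Its lowest queen, of nest 8, was only just above its highest worker, of nest 13, and the step within nests ran from 1.22 to 6.59. The fitted difference was 4.79 (SE 0.50, adjusted p = 2.45e-04), and that of LOC107065359 was 4.11 (SE 0.49, adjusted p = 4.11e-04). Such enzymes oxidize fatty acids, hormones and foreign compounds.

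Among genes higher in workers stood one with the product name of proteasome regulatory subunit 9 (LOC107074200). It ran over 357, 555 and 1941 CPM in workers and 35.9, 82.8 and 126 CPM in queens. Every worker lay above every queen, and the difference was -3.09 (SE 0.34, adjusted p = 3.03e-04). Of 31 genes of the proteasome itself, the complex that degrades tagged proteins, 3 were higher in queens and 1 higher in workers. That share, 12.9%, was close to the 11.3% of all genes. Their differences ran from -0.30 to 0.25, with a median of 0.02. Cht7, a chitinase, stood at 14.3, 17.0 and 21.0 CPM in queens and 26.9, 33.0 and 44 CPM in workers (difference -0.95, SE 0.09, adjusted p = 1.07e-04). MOXD1 homolog 1 (LOC107064264), of the family of dopamine beta-hydroxylase, differed by -1.66 (SE 0.20, adjusted p = 4.19e-04), and an alpha-tocopherol transfer protein-like gene (LOC107066167), of a family that carries vitamin E, by -1.53 (SE 0.18, adjusted p = 3.57e-04). No worker overlapped a queen in any of these.

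Of 8 storage and lipid carrier genes of the fat body, 4 were higher in workers and none was higher in queens (50% called, where 11.3% of all genes were). Hex70a, a hexamerin that stores amino acids, ran over 8.28, 129 and 2149 CPM in workers and 0, 4.64 and 8.36 CPM in queens. The lowest worker, of nest 54, was level with the highest queen, of nest 9, but the worker was higher in all 10 nests, with differences of -8.76 to -1.70. The fitted difference was -5.95 (SE 0.81, adjusted p = 0.00111). HEX70b followed at -3.25 (SE 0.74, adjusted p = 0.0168), and 5 workers, of nests 28, 49, 56, 58 and 70, held 2.12 to 9.75 CPM where the other workers held 0.384 to 0.526 CPM. These were also the 5 workers of highest Hex70a. Apolpp, the carrier of lipids in haemolymph, had a narrow step, with 1081, 1223 and 1909 CPM in queens and 1758, 2189 and 2502 CPM in workers (difference -0.70, SE 0.11, adjusted p = 0.00224). These 3 genes are also markers of fat body, a tissue that lies against the brain: the mean log2 level of 6 such markers differed by -1.47 (SD 1.25, exact sign-flip permutation p = 0.0137), a value that holds these genes themselves. The summed level of the same markers, in which Vgn weighs most, was higher in 6 of 10 queens (exact p = 0.0859), and the part of fat body in these differences was not tested.

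Vitellogenin (Vgn), the egg-yolk precursor, split the nests. Queens ran over 772, 5337 and 16779 CPM and workers over 522, 1706 and 4528 CPM. In nests 1, 9, 28, 54, 56 and 70 the queen was higher by 1.82 to 3.47 on the log2 scale, whereas in nests 8, 13, 49 and 58 the worker was the higher, with differences of -0.34 to -0.13. The fitted difference of 1.61 (SE 0.49) had an adjusted p of 0.0552. The workers of nests 13, 49 and 58 were the 3 highest of the 10, at 3880.1 to 4528 CPM, and in nest 8 both wasps were low, at 772 and 911 CPM.

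Genes of hydrocarbon and fatty acid synthesis were higher in queens in 13 of 37 cases and higher in workers in none (35.1% called, where 11.3% of all genes were). Their median was 0.70. These enzymes make the wax and hydrocarbons of the cuticle by which wasps recognize rank and nestmates. Of the 37, 27 are known by product names from the study's tables, with the limit given for histones. The elongase LOC107072906 stood at 12.3, 61.5 and 151 CPM in queens and 1.28, 9.91 and 20.2 CPM in workers, and the difference was 2.72 (SE 0.37, adjusted p = 0.00111). All queens but that of nest 49 lay above all workers. A fatty acyl-CoA reductase (LOC107070407) ran over 14.9, 87.7 and 161 CPM against 0.752, 15.1 and 27.5 CPM (difference 2.64, SE 0.43, adjusted p = 0.00315), with nest 49 the one nest where the worker was higher. Another reductase, LOC107065778, had steps from -1.74 in nest 49 to 6.56 in nest 54 and a fitted difference of 2.35 (SE 0.58, adjusted p = 0.0235).

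Chemosensory genes held one step of the same kind. Ejaculatory bulb-specific protein 3 (LOC107068616), of a family of small carrier proteins, ran over 22.2, 341 and 777 CPM in queens and 3.91, 23.6 and 87.2 CPM in workers. Apart from the queen of nest 49 the castes did not overlap, and the difference was 3.66 (SE 0.53, adjusted p = 0.00144). Of 10 odorant-binding and chemosensory genes, 2 were higher in queens and none in workers (20% called, where 11.3% of all genes were). Of 23 odorant and gustatory receptors, 4 were higher in workers and 1 in queens (21.7% called). Before the filter on counts this list held 24 genes. Of the 24, 18 are known by product names from the study's tables, with the limit given for histones. Odorant receptor 13a-like (LOC107069909) stood at -0.85 (SE 0.16, adjusted p = 0.00644) and gustatory receptor 68a-like (LOC107066788) at 1.43 (SE 0.28, adjusted p = 0.00779).

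**Figure D4:**
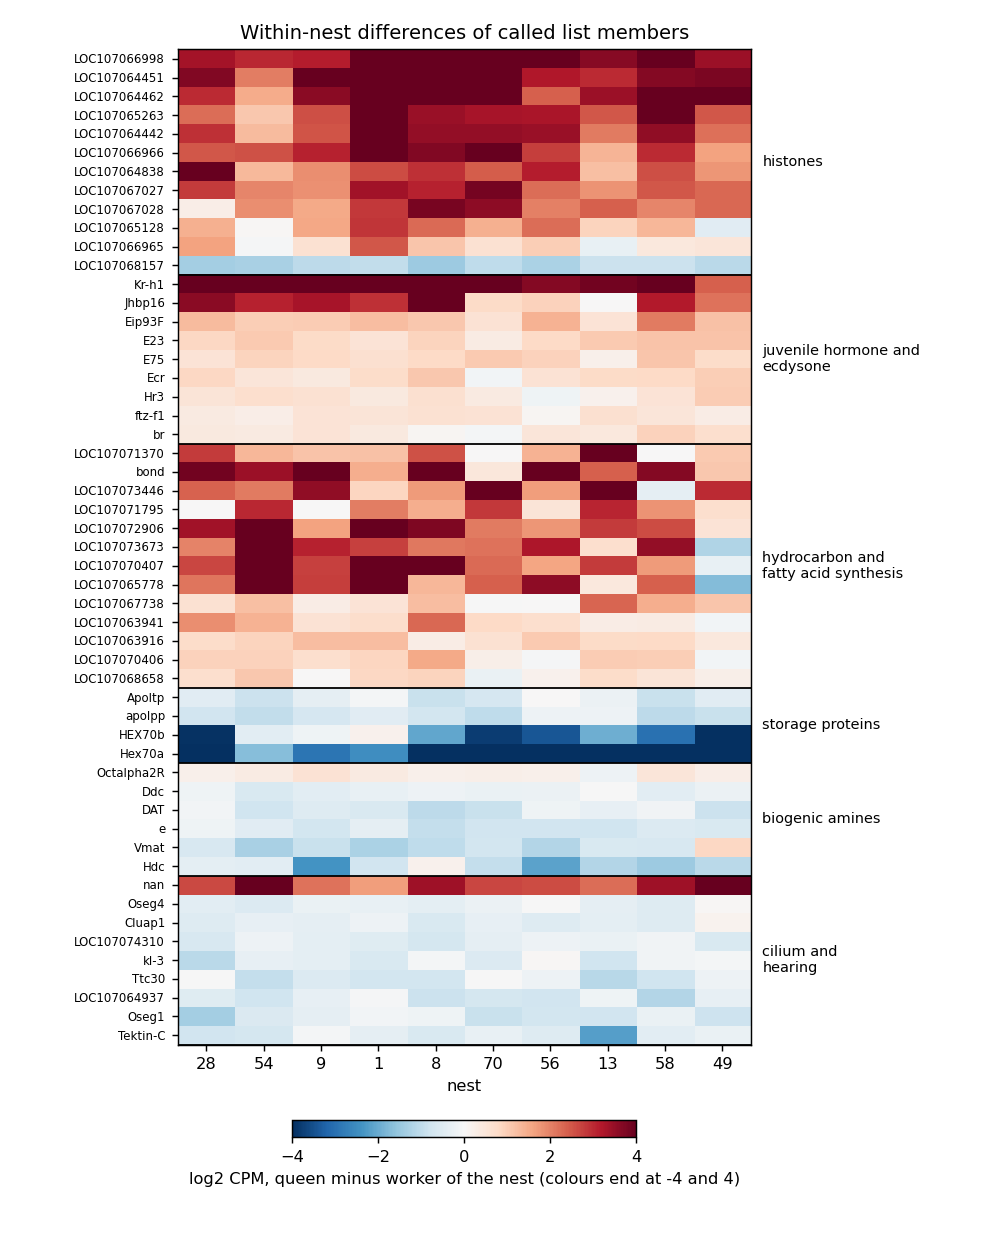
Within-nest differences of log2 CPM, queen minus worker, for the called members of 6 gene lists, with nests in columns in the order used for the plot of places and colours that end at -4 and 4. Histone and hormone genes are red in nearly all columns, and several genes of hydrocarbon synthesis turn pale or blue in nest 49.

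Genes of biogenic amines, the transmitters dopamine, serotonin, octopamine and histamine, were lower in queens in 5 of 27 cases and higher in 1 (22.2% called, where 11.3% of all genes were), with a median of -0.18. Ebony (e), which joins beta-alanine to dopamine or histamine, stood at 98.4, 128 and 159 CPM in queens and 176, 195 and 234 CPM in workers. No worker overlapped a queen, and the difference was -0.62 (SE 0.08, adjusted p = 4.84e-04). The dopamine transporter DAT differed by -0.55 (SE 0.11, adjusted p = 0.00957) and Ddc, the enzyme that makes dopamine and serotonin, by -0.29 (SE 0.06, adjusted p = 0.00957), each with the worker higher in 10 of 10 nests. Vmat, which loads amines into vesicles, was lower in 9 queens at -0.76 (SE 0.17, adjusted p = 0.0172), with nest 49 at 0.84. Hdc, the enzyme of histamine, which photoreceptors use as their transmitter, stood at -1.05 (SE 0.22, adjusted p = 0.0117). Of 14 photoreceptor markers, Hdc among them, 5 were called lower in queens and none higher (35.7%, where 11.3% of all genes were called). The opsin Lop2 was at -1.91 (adjusted p = 0.0120) and trp at -1.52 (adjusted p = 0.0304), but members ran up to 2.02. The mean log2 level of the 14 differed by -0.59 (SD 1.42, exact sign-flip permutation p = 0.229) and was higher in 3 of 10 queens. Their summed level was higher in 2 of 10 queens (exact p = 0.971). The part of eye tissue in Hdc was not tested.

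Cilium genes, which build the sensory endings of hearing and touch neurons, were lower in queens in 8 of 55 cases, and nan was the one that was higher (16.4% called, where 11.3% of all genes were). An axonemal dynein (LOC107064937) differed by -0.57 (SE 0.11, adjusted p = 0.00634) and Oseg1, of transport along cilia, by -0.61 (SE 0.12, adjusted p = 0.00878), each with the worker higher in 10 of 10 nests. The cilium list had a median of -0.02, the same as that of all genes.

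Of 31 neuropeptides and receptors, 4 were higher in workers and 1 in queens (16.1% called), and of 17 insulin pathway genes 1 was higher in workers and 2 in queens (17.6%), where 11.3% of all genes were called. Lgr3, a relaxin-type receptor, stood at -0.70 (SE 0.10, adjusted p = 0.00186), with the worker higher in every nest. The insulin-like peptide ILP-2 was lower in 9 queens, at -0.61 (SE 0.12, adjusted p = 0.00744). Pi3K21B, the regulatory subunit of the kinase downstream of the insulin receptor, was higher in 10 of 10 queens at 0.58 (SE 0.09, adjusted p = 0.00238).

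In immunity, 7 of 31 genes, the haemocyte marker Hml among them, were higher in queens and 1 in workers (25.8% called, where 11.3% of all genes were). Tab2, an adaptor of the immune deficiency pathway, ran over 294, 411 and 608 CPM in queens and 143, 215 and 291 CPM in workers. The lowest queen lay just above the highest worker, and the difference was 0.96 (SE 0.17, adjusted p = 0.00406). Toll-like receptor 13 (LOC107067723) stood at 0.85 (SE 0.13, adjusted p = 0.00205) and cact, the inhibitor of the Toll pathway, at 0.49 (SE 0.10, adjusted p = 0.0111). Defensin-1 (Def1) was called at adjusted p = 0.0181, but its level rested on the queens of nests 8 and 13, at 13.7 and 19.6 CPM, where the other 8 queens held at most 2.95 CPM and no worker more than 0.590 CPM.

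Ribosomal and respiratory chain genes were called no more often, or hardly more often, than all genes. Of 62 cytosolic ribosomal proteins, 5 were higher in queens, with RpL15 at 0.36 (SE 0.08, adjusted p = 0.0121). Of 68 mitochondrial ones, 5 were higher in workers, with mRpS31 at -0.32 (SE 0.06, adjusted p = 0.00643). These shares, 8.06% and 7.35%, were below the 11.3% of all genes. Oxidative phosphorylation had 6 of 51 genes higher in workers (11.8%) and none in queens, close to that of all genes, with ATPsyngamma of the ATP synthase at -0.57 (SE 0.13, adjusted p = 0.0144). Of 23 heat shock proteins and chaperonins, 6 were higher in queens (26.1% called), with the folding subunit CCT6 at 0.22 (SE 0.05, adjusted p = 0.0122) and higher in all 10 queens. The clock gene per was higher in 9 queens at 0.44 (SE 0.11, adjusted p = 0.0300). It was the single call of 8 clock genes (12.5%), close to the 11.3% of all genes. This call was lost in 9 of the alternative fits.

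Of 12 transposon-derived genes, most of them piggyBac-like and all known by product name, 2 were lower in queens (16.7% called against 11.3% of all genes), and the piggyBac-like gene LOC107071450 differed by -0.35 (SE 0.06, adjusted p = 0.00308) with the worker higher in every nest. Of 5 yellow and royal jelly genes none was called, and Y-f stood at 1.36 (SE 0.47, adjusted p = 0.0821).

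Some called genes did not behave alike over the pairs. The dirigent protein 10-like gene LOC107074257 was called higher in workers (adjusted p = 0.0266), yet only the workers of nests 54 and 56, aged 3 and 2 days, held much of it, at 77.0 and 50.8 CPM. In the other 8 nests both wasps were at or below 0.723 CPM, and in nests 1 and 13 the queen was the higher at 0.203 and 0.204 CPM. LOC107074265, a gene with no product name, had the same shape, with 12.4 and 7.41 CPM in these workers, 0.0815 CPM in the queen of nest 54 and 0 in the other 17 brains. The 5 called genes of smallest p that had the opposite sign in 3 nests were LOC107072918, LOC107074206, Dbct, LOC107067935 and LOC107071044, and their adjusted p ran from 0.0391 to 0.0444. Dbct, for instance, ran from -0.32 to 1.59 over nests (fitted difference 0.79, SE 0.23, adjusted p = 0.0429).

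Whether the castes of a nest shared a level was asked next. After caste was taken into account, 16 genes (0.148%) differed between nests at an adjusted p below 0.05, and 1805 (16.7%) at an unadjusted p below 0.05. DESeq2 called 1641 in the same test, and edgeR called 2 without nests 54 and 56, whose workers were 3 days old or younger. The smallest p belonged to LOC107066175, which has no product name: both wasps of nest 58 were at 0, and the other 18 brains held 11.3 to 25.0 CPM (F = 60.4, adjusted p = 2.77e-04). A fatty acyl-CoA reductase (LOC107073746) was at 0 in both wasps of nests 49 and 70 and at 4.29 to 32.2 CPM in the other 16 brains (adjusted p = 0.0277). A count of 0 allows up to 3 counts in a library.

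Nest 54 set several of the 16. Dhc1, an axonemal dynein, stood at 63.2 CPM in its queen and 67.3 CPM in its worker, and at no more than 22.1 CPM in the other 18 brains (adjusted p = 0.00184). U3-55K, a protein of ribosomal RNA processing, stood at 151 and 83.6 CPM against at most 25.9 CPM elsewhere (adjusted p = 0.00184). Rpi, LOC107069478 and LOC107073515 were also highest in both wasps of nest 54. Without nest 54 the count of 16 fell to 5, without nest 8 or 70 to 9, and it rose to 30 without nest 28, 38 without nest 58, 48 without nest 13 and 149 without nest 49. Ddc, named above for its caste difference, was highest in nests 54 and 56, at 98.5 and 116 CPM in the queens and 150.2 and 137 CPM in the workers, where the other 16 brains held 46.3 to 84.9 CPM (adjusted p = 0.00184). Queen and worker of both nests were high together, and those were the nests of the youngest workers.

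**Figure D5:**
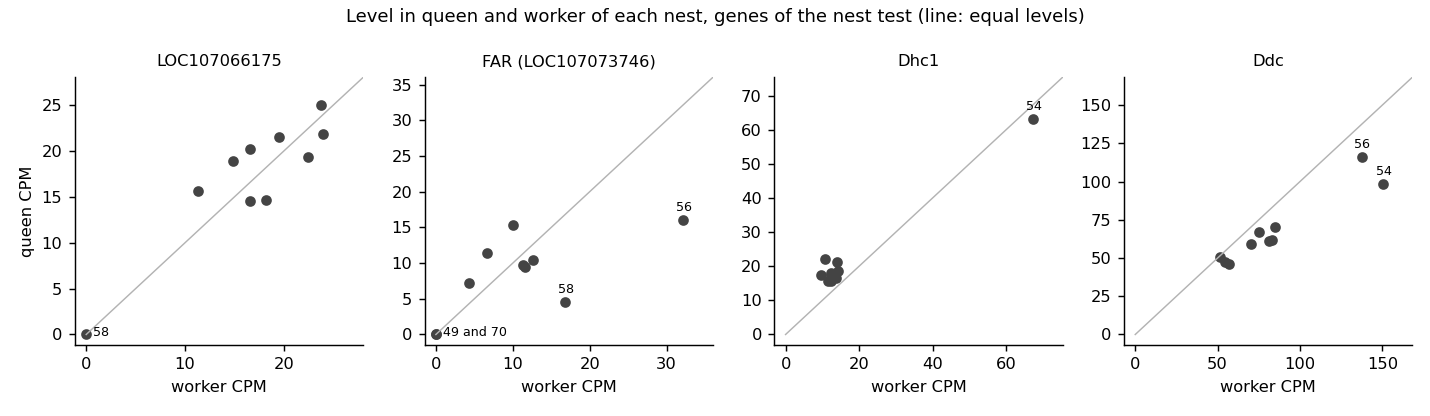
Queen level against worker level in CPM, one point for each nest, for 4 genes called in the test between nests, with a line of equal levels. LOC107066175 is at 0 in both wasps of nest 58, the reductase LOC107073746 in both of nests 49 and 70, and Dhc1 and Ddc have nests 54, or 54 and 56, apart from the rest.

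Over all genes the likeness of nestmates was weak. With the caste mean taken out, queen and worker of a nest had correlations of -0.107 to 0.363 over 9702 genes (median 0.170), and queens and workers of different nests had a median of -0.0208 over 90 pairs. Genes are not independent replicates, and these values describe the libraries.

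Worker age did not separate the pairs by a test across genes. The within-nest difference changed with the age of the worker at an adjusted p below 0.05 in 0 of 10794 genes by edgeR (0%), at an unadjusted p below 0.05 in 765 (7.09%), and DESeq2 called 48. The smallest p belonged to a ras-interacting protein RIP3-like gene (LOC107067156), with a slope of 0.13 log2 units per day of worker age in the worker relative to the queen (adjusted p = 0.123). Its level was 7.67 and 7.9 CPM in the 2 youngest workers and 42.5 and 37.4 CPM in the 2 oldest. Of 51 genes of oxidative phosphorylation, 29 had an unadjusted p below 0.05, and ATPsyngamma ran from 594 CPM in the worker of 2 days to 219.5 to 225 CPM in workers of 16, 20 and 23 days (slope -0.06 per day, adjusted p = 0.244). The nests of day 12 held workers of 13, 20 and 23 days, so sampling day and worker age overlap.

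Wasps outside the pairs gave a separate reading. Between the 16 queens, 12 of them from queen-removal nests, and 2 control workers with no partner, which share no library with the pairs, 19 genes were called (0.176%), 11 higher in queens and 8 in workers, and 16 of these were also called in the pairs, each with the same direction. Of the 1220 genes of the pairs, 1150 had the same direction in the other wasps (94.3%), where 72.3% of all genes did. The share was 97.6% on the queen side and 90.8% on the worker side, and 59 of the 59 genes past 1.5-fold had the same direction. With the 4 queens of control nests alone, a comparison chosen after the data were seen, edgeR called 1 gene, LOC107073715, and 1435 at an unadjusted p below 0.05. The shares were then 91.6% of the 1220 genes against 70.2% of all genes, and 56 of the 59. With all 16 queens LOC107073715 differed by 4.27 (SE 0.46, adjusted p = 9.34e-05), nan by 2.54 (SE 0.44, adjusted p = 0.0138) and dati by 1.499 (SE 0.27, adjusted p = 0.0243). Kr-h1 differed by 6.34 (SE 1.35, adjusted p = 0.0634), and ejaculatory bulb-specific protein 3 (LOC107068616) by 1.86 (SE 1.53, adjusted p = 0.641).

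Markers of tissues around the brain differed in some pairs. The mean log2 level of 21 muscle genes was higher in 9 of 10 queens (mean difference 0.86, SD 1.20, exact sign-flip permutation p = 0.0176), with nest 13 at 3.76, and their summed level was 11012 to 46647 CPM in queens and 2390 to 16897 CPM in workers. Of the 21 muscle genes, 2 were called (9.52%, where 11.3% of all genes were). These were tn at 1.65 (adjusted p = 0.0210) and bent at 1.43 (adjusted p = 0.0351). The mean log2 level of haemocyte markers was higher in 10 of 10 queens (mean 0.40, SD 0.48, exact p = 0.00195, the smallest that 10 nests can give). Of these 4 markers 1 was called (25%), Hml at 0.82 (adjusted p = 0.0499). The summed level of the 4 was higher in 8 of 10 queens (exact p = 0.0332). The mean log2 level of 5 glial markers differed by -0.20 (SD 0.38, exact p = 0.133), and their summed level was lower in 9 of 10 queens, 2809 to 3442 CPM against 3238 to 6466 CPM (exact p = 0.00391). Of the 5 glial markers 1 was called (20%). It was Gs2, the glutamine synthetase of glia, at -0.76 (SE 0.16, adjusted p = 0.0111). Exocrine gland markers, 6 genes known by product name, had a mean log2 difference of -0.36 (SD 0.46, exact p = 0.0410) and a summed level lower in 10 of 10 queens, 98.7 to 296 CPM against 163 to 455 CPM (exact p = 0.00195). Neuronal markers, the defining genes of the tissue, were present in each brain at a summed 1358 to 2897 CPM and differed by 0.11 on average (SD 0.42, exact p = 0.434). With the muscle level as a covariate, chosen after the data were seen, 657 genes were called and 34 were past 1.5-fold. The part of these tissues in other differences was not tested.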

How the data were processed

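Per the labels and the study's methods, the authors made one library per brain, filtered reads with SortMeRNA, trimmed them with Trimmomatic (0.36 in the submitters' processing notes, where the study's reporting summary names another version), aligned them with STAR (2.7) and took raw gene counts from StringTie2. The deposited table holds these counts, not normalized. A blank row, with 0.0218 to 0.0638% of each library, was left out, and 194 repeated rows were summed, which left 11140 genes. Tests covered 10794 of them. A gene was kept if its counts added up to more than 20 in any group of the whole series, not the pairs alone. These groups were the queens, the control workers and the queen-removal wasps of either sampling day.

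Counts were analysed in R (4.3.3) with edgeR (4.0.16): TMM scaling, a quasi-likelihood fit of nest and caste, and Benjamini-Hochberg adjustment over all genes at 0.05, with a further test against a 1.5-fold difference. Nest was a block, a paired design, because the wasp names carry the nest number. Deviations from caste means correlated within nests with a median of 0.170. The sampling day and treatment of a nest came from the study's sample table. The nest terms of the same fit tested nest level, and a term for worker age tested age. Within-nest differences are log2 CPM with a prior count of 2, and single values over 10 nests had a two-sided exact sign-flip permutation test. DESeq2 (1.42.0), limma (3.58.1), other scalings and filters, and nests left out were alternatives.

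Named genes are the 10 lowest in p on either side with a product name, the 5 of largest fold in each direction among genes alike in 10 nests, the 5 of largest spread over nests, the 5 of smallest p with opposite signs in 3 nests, the 10 of smallest p in the nest test, the 5 lowest in p for either sign of the age slope, up to 4 members of each list, Kr-h1, dati, vitellogenin and jhamt. Others, among them genes whose castes do not overlap, members past 1.5-fold and neighbours of named genes, were chosen after their values were seen. The pairs and the gene lists were chosen with earlier results of these data known. Symbols came from a RefSeq gene table (assembly Pdom_raw_medaka, 10144 genes matched). Products, for 4398 genes, came from the study's tables of caste and age results. Scripts were tested on simulated data. Strand use in counting is not given in the sources used here, and depth limits genes of few counts most.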

Additional observations from a re-analysis of the deposited data

Results flagged for a closer look

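In 5 of 43 sets of 10 values checked, a single nest lay further from the others than Dixon's 95% critical value allows. The sets were within-nest differences of named genes, marker levels and library totals, and the places of queens and of workers. Many of the genes were chosen by their differences or spread in these data, so the number expected by chance is not known. For Cht7 this was nest 54 at -1.583, with the other nests between -1.086 and -0.6632. For the proteasome regulatory subunit 9-like gene LOC107074200 it was nest 56 at -5.695, whose worker held 1941 CPM, against -3.779 to -1.804 in the others. For the venom carboxylesterase-6-like gene LOC107065279 it was nest 9 at 0.1272, the only nest with the queen higher, against -1.161 to -0.7718. The muscle markers stood at 3.759 in nest 13, against -0.4601 to 1.675, and the haemocyte markers at 1.648 in nest 54, against 0.04188 to 0.6812.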

How the results depend on the processing

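The count of 1220 genes became 963 with no replicate block, of which 833 were shared, 1959 with DESeq2 (1214 shared), 500 without the nests with a worker of 3 days or younger (466 shared), 657 with the muscle level as a covariate, an alternative chosen after seeing the data (476 shared), and 710 to 1431 with one nest left out. The count past 1.5-fold, 59, became 79 with no replicate block, 37 with day 3 nests alone, 37 without the young workers, 34 with the muscle level and 49 to 71 with one nest left out. The nest test gave 1641 genes with DESeq2, 2 without the young workers and 5 to 149 with one nest left out. The age test gave 48 with DESeq2 and 0 to 0 with one nest left out. Genes of one direction in every nest numbered 1343 over the 7 nests of day 3, where fewer nests have to share it, and 592 to 890 with one nest left out, 890 without nest 49. The other wasps gave 194 with DESeq2 and 1 with the 4 queens of control nests alone, also chosen after seeing the data. The uncalled difference of jhamt turned to 0.24 with day 3 nests, 0.23 with the muscle level, 0.0616 without nest 13 and 0.0052 without nest 58, and ran down to -0.25 without nest 49. For other changes the cause was not tested. Of 153 genes named for caste, 106 neither lost a call nor turned in sign under any of these changes but the muscle level, where a value was given. A stricter filter, more than 20 counts in every paired queen or every paired worker, gave values for 134 of the 153. The 153 also include Vgn and jhamt, which were not called at the outset. A fit of the 3 nests of day 12 alone was not run.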

Other observations

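A search of the 10794 genes for those with at least 20 counts in both wasps or 0 in both, in every paired nest, and with both kinds of nest present, found 2 genes, LOC107066175 and the fatty acyl-CoA reductase LOC107073746. It was made after their values were seen. Over all 96 brains, LOC107066175 was at 0 in 10 and LOC107073746 in 59. Among the 25 nest numbers with more than one wasp, LOC107066175 was at 0 in all wasps of 1, above 0 in all of 19 and mixed in 5. LOC107073746 was at 0 in all wasps of 10, above 0 in all of 12 and mixed in 3. Wasp W28BLOR was left out of these counts by nest number. Its name carries the number 28, but the study's sample table lists it under another nest. It held 0 CPM of LOC107073746, where the queen and the control worker of nest 28 held 10.3 and 12.5 CPM.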
